A study of Mus musculus with 12 samples.

Results

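Aminoacyl-tRNA synthetases, the enzymes that load each transfer RNA with its amino acid, were followed in mouse olfactory epithelium after clodronate liposomes and after removal of the olfactory bulbs. The members were chosen by name: 36 genes, of which 20 encode cytosolic enzymes and 16 encode mitochondrial enzymes. A probe set whose annotation names that gene alone was present for 35 of them, and 34 (19 cytosolic and 15 mitochondrial) passed the filter on dim signals and were tested among 13628 genes in all. Dars, the cytosolic aspartyl enzyme, is not analysed here, and both probe sets of Mars2, the mitochondrial methionyl enzyme, were too dim to be tested. Mars2 signals ran from 12.1 to 90.6 on one probe set and from 1.4 to 37.1 on the other, while the 40th percentile of an array lay between 65.3 and 79.3.

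RNA was measured on 12 one-colour Affymetrix arrays of microdissected olfactory epithelium, the sheet of sensory neurons, supporting cells and basal stem cells that lines the nose. All mice were w/t males of strain C57BL/6J at 6 weeks of age, and all received liposomes, so there were no mice without liposomes. Lip-C mice were given clodronate-loaded liposomes through the nose on each day of the course and by tail vein on its first and last days, a treatment meant to deplete macrophages of the tissue and a subset of blood monocytes. Lip-O mice were given empty liposomes in the same way. Mice then had bilateral olfactory bulbectomy (OBX), which severs the axons of the sensory neurons or a sham operation; the epithelium was collected 48 h later. The 4 groups, Lip-O sham, Lip-C sham, Lip-O OBX and Lip-C OBX, held 3 arrays each. The titles call the arrays biological replicates. The sources used here do not give whether an array stands for 1 mouse or for several, and p-values measure the spread between these samples.

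Each synthetase joins 1 amino acid to its transfer RNAs, and the charged transfer RNAs then feed the ribosome. Most cytosolic enzymes and their mitochondrial counterparts come from separate nuclear genes, the latter marked by the suffix 2, while Gars (glycyl) and Kars (lysyl) each give rise to both forms. Several cytosolic enzymes assemble with scaffold proteins into the multisynthetase complex, and many cytosolic synthetase genes are known targets of the transcription factor ATF4, which acts when amino acids run short or proteins misfold.

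The labelled tissue carried its markers. Omp, Cnga2, Adcy3 and Gnal of mature sensory neurons, Cyp2g1 of supporting cells and Krt5 and Trp63 of basal cells exceeded the 40th percentile on all 12 arrays. Every array had been scaled to the same trimmed mean of 500, and median signals ran from 117.5 to 134.2. The OBX arrays lay apart from the sham arrays on the leading principal component, and Lip-O OBX replicate 3 and Lip-C OBX replicate 3 were the OBX arrays nearest to sham (10.5 and 2.75, against -8.92 for the nearest sham array). These are bulk samples, in which fewer cells of a type and less RNA per cell cannot be told apart.

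The first comparison was Lip-C with Lip-O, taken as the mean of the change in sham and in OBX mice. Most cytosolic synthetases had higher values in Lip-C mice, whereas mitochondrial ones were spread on both sides of 0. Iars (isoleucyl), Mars1 (methionyl) and Eprs (glutamyl-prolyl) rose, which is 3 of 19 cytosolic enzymes, no cytosolic enzyme fell, and 0 of 15 mitochondrial enzymes changed in either direction (limma, Benjamini-Hochberg adjusted p under 0.05). Of all genes tested, 0.77% rose and 0.822% fell by that rule, 1.59% in either direction (105 and 112 genes, or 84 and 156 with array medians set equal). Without adjustment, 10 cytosolic and 2 mitochondrial enzymes passed 0.05, against 16.8% of all genes. Positive log2 changes were seen for 14 of 19 cytosolic enzymes, 8 of 15 mitochondrial enzymes and 51.8% of all genes. The median log2 change was 0.16 for the cytosolic enzymes, 0.00 for the mitochondrial enzymes and 0.01 for all genes tested.

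The same values were also read array by array. For each array, the log2 signal of every enzyme was taken relative to that enzyme's mean over the 12 arrays, and the median was read over the 19 cytosolic enzymes. This median was -0.06, -0.05 and -0.12 on the Lip-O sham arrays and 0.11, 0.14 and 0.03 on the Lip-C sham arrays. After OBX it was -0.06, -0.05 and -0.04 with Lip-O and 0.06, 0.16 and 0.01 with Lip-C. All 6 Lip-C arrays lay above 0 and all 6 Lip-O arrays below, with no overlap. Lip-C OBX replicate 3 exceeded the highest Lip-O array by little, and its median of 0.013 was close to the 0.011 of all genes tested. Because the values are centred on the 12 arrays, 0 is no separate reference. The group means were -0.08 ± 0.04, 0.09 ± 0.06, -0.05 ± 0.01 and 0.08 ± 0.07 (SD, n = 3 each, in the same order). The same median over the 15 mitochondrial enzymes was 0.04 ± 0.03 in Lip-O sham, -0.06 ± 0.08 in Lip-C sham, -0.01 ± 0.04 in Lip-O OBX and 0.04 ± 0.04 in Lip-C OBX, and these groups did not sort by liposome.

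**Figure D1:**
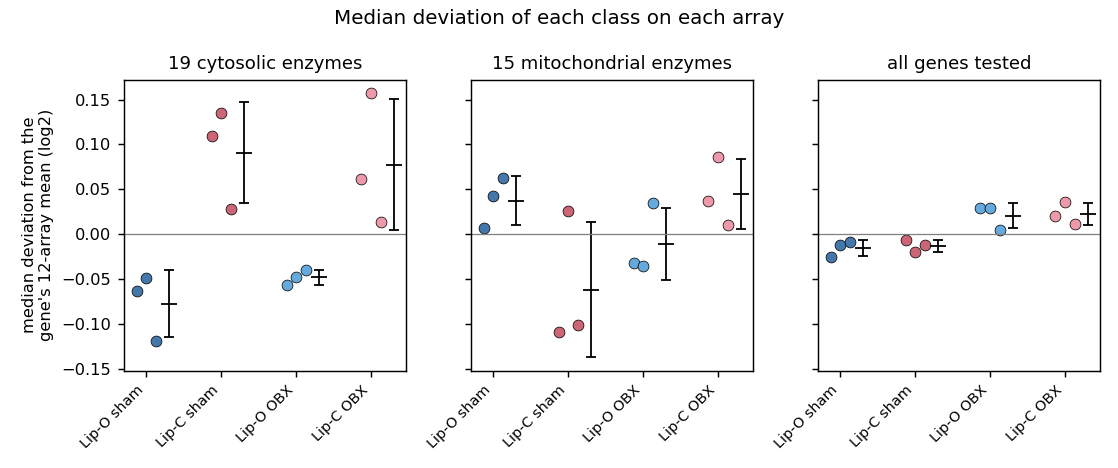
Median log2 signal of the cytosolic synthetases, the mitochondrial synthetases and all genes tested on each array, relative to each gene's mean over the 12 arrays, by group with the group mean and SD. Cytosolic medians were above 0 on all 6 Lip-C arrays and below 0 on all 6 Lip-O arrays, and mitochondrial medians overlapped between liposomes.

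Iars charges the isoleucine transfer RNAs and is part of the multisynthetase complex. Its signals were 1446, 1483 and 1425 in Lip-O sham and 1813, 1938 and 1616 in Lip-C sham. In OBX mice they were 1339, 1421 and 1514 with Lip-O and 1855, 1956 and 1715 with Lip-C. Every Lip-C array exceeded every Lip-O array. The rise was 0.33 on the log2 scale (SE 0.06, 1.26-fold, limma adjusted p = 0.0304), with a change of 0.30 in sham and 0.37 in OBX mice.

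Mars1, which charges both initiator and elongator methionine transfer RNAs, is another enzyme of the complex. Its signals were 1288, 1389.7 and 1386 in Lip-O sham and 1437, 1753 and 1434 in Lip-C sham, 1154, 1168 and 1224 in Lip-O OBX and 1624, 1611 and 1537 in Lip-C OBX. Here too the Lip-C arrays lay above the Lip-O arrays within each operation, with the wider gap in OBX mice. The rise was 0.30 (SE 0.06, 1.23-fold, limma adjusted p = 0.0427), from 0.18 in sham and 0.42 in OBX mice.

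Eprs charges both glutamate and proline transfer RNAs with one polypeptide and is the third enzyme of the complex that passed. Its signals were 1369, 1387.5 and 1264 in Lip-O sham and 1769.9, 1833 and 1791 in Lip-C sham, 1378, 1639.9 and 1455 in Lip-O OBX and 1716, 1752 and 1581 in Lip-C OBX. The sham groups were far apart, while in OBX mice the lowest Lip-C array lay under the highest Lip-O array. The rise over both operations was 0.30 (SE 0.06, 1.23-fold, limma adjusted p = 0.0369). Its other kept probe sets changed by 0.16 (unadjusted p = 0.0434, adjusted p = 0.273) and 0.14 (adjusted p = 0.605), and averaging them with the one used gave 0.20 (adjusted p = 0.178).

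These calls stood close to the threshold. Iars stayed past it when the array left out was replicate 3 of Lip-C sham, of Lip-O OBX or of Lip-C OBX, and leaving out any other single array gave 0.30 to 0.34 (adjusted p 0.0603 to 0.0712). Eprs stayed past it only when replicate 2 of Lip-O OBX or replicate 3 of Lip-C OBX was left out, the rest giving 0.27 to 0.31 (adjusted p 0.0534 to 0.0831), and Mars1 only when replicate 3 of Lip-O OBX was, the rest giving 0.25 to 0.33 (adjusted p 0.0501 to 0.0941).

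**Figure D2:**
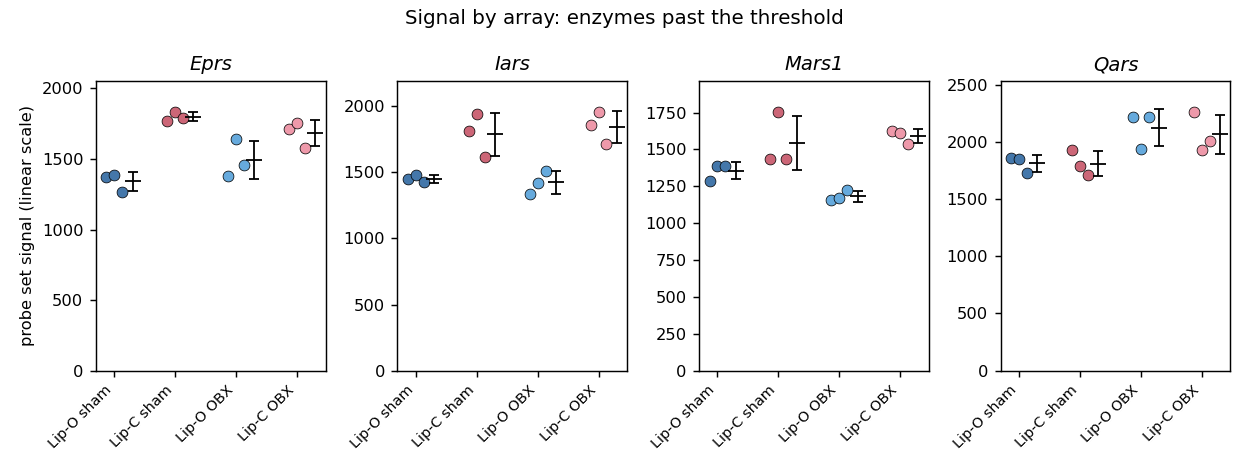
Probe set signal on a linear scale on each of the 12 arrays for Eprs, Iars, Mars1 and Qars, with the mean and SD of each group of 3. Lip-C arrays lay above Lip-O arrays for Iars and Mars1 under both operations and for Eprs in sham mice, whereas Qars was higher on the OBX arrays.

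Among the other enzymes of the multisynthetase complex, Lars (leucyl) changed by 0.16, Rars (arginyl) by 0.04, Qars (glutaminyl) by -0.02 and Kars by -0.09 with Lip-C, none past the threshold. Thus 3 of 7 tested enzymes of the complex rose, where 0.77% of all genes did, with a median of 0.16 and 5 positive changes. Of the 12 cytosolic enzymes outside it none passed, with a median of 0.14 and 9 positive changes. By median and direction these groups were close. By the fold of the catalytic domain, 3 of 10 class I and 0 of 9 class II cytosolic enzymes rose, with medians of 0.22 and 0.13. Eprs was counted in class I only, although its prolyl part is of class II.

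Several enzymes outside the complex had changes of similar size with larger adjusted p. Yars (tyrosyl) changed by 0.28 (adjusted p = 0.209), Cars (cysteinyl) by 0.28 (adjusted p = 0.0877), Aars (alanyl) by 0.26 (adjusted p = 0.0715) and Sars (seryl) by 0.22 (adjusted p = 0.103), all by limma. Sars and Yars were also separated without overlap in both operations. Sars signals ran from 2735 to 2820.3 in Lip-O sham, 3058 to 3577 in Lip-C sham, 2456.5 to 2637 in Lip-O OBX and 2714 to 3276.5 in Lip-C OBX. Yars signals ran from 555 to 669 and from 672 to 774 in the sham groups, and from 426 to 643 and from 654 to 796 in the OBX groups. With Iars and Mars1 that made 4 of 19 cytosolic enzymes higher on every Lip-C array than on every Lip-O array of the same operation, 0 of 15 mitochondrial enzymes, and 1.45% of all genes.

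The remaining free cytosolic enzymes differed less. Nars (asparaginyl) changed by 0.17, Gars by 0.16, Tars (threonyl) by 0.13, Hars (histidyl) by 0.09 and Wars (tryptophanyl) by 0.08. Vars (valyl) changed by -0.01, and Farsb and Farsa, the subunits of the phenylalanyl enzyme, by -0.05 and -0.10. Adjusted p of this group ran upward from 0.119, and the 95% intervals of Nars (0.06 to 0.28) and Gars (0.03 to 0.29) lay above 0. A dimmer probe set of Farsb went the other way from the one used, at 0.31 (unadjusted p = 0.00614, adjusted p = 0.112).

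The start of these genes was read for the element TGATGNAA, the core to which ATF4 with a C/EBP partner is known to bind. Windows from 250 bases before to 50 bases after the start were taken from RefSeq (build GRCm38.p6) and searched on both strands, and 13 cytosolic and 14 mitochondrial members had a window. The letters were present in 5 of 13 cytosolic windows (38.5%), in 0 of 14 mitochondrial windows and in 1304 of 32851 windows of all genes (3.97%). Of 36 other amino acid response genes with a window, 12 held them (33.3%). For each of these 5 genes the match nearest to the start is shown with 30 bases of each gene's own strand, 5′ to 3′, because they are what the matching cytosolic genes share that their names do not give. Capitals mark the matched letters, of which TTGCATCA and TTTCATCA are the element on the opposite strand.
Yars, chr4:129189895-129189924, plus strand: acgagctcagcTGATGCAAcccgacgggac
Gars, chr6:55037960-55037989, plus strand: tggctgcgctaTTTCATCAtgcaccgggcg
Aars, chr8:111033840-111033869, plus strand: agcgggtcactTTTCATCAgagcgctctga
Iars, chr13:49682126-49682155, plus strand: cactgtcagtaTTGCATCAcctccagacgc
Tars, chr15:11399655-11399684, minus strand: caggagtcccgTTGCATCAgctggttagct

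The matched letters shown began 30 bases before the start in Gars and 15 before it in Tars. They began 4 bases after the start in Yars, 8 after it in Iars and 10 after it in Aars. With Lip-C the 5 genes with a match changed by 0.13 to 0.33, with a median of 0.26. The 7 cytosolic genes with a window and no match (Eprs, Farsa, Farsb, Kars, Mars1, Qars and Sars) changed by -0.10 to 0.30, with a median of -0.02, and 13 mitochondrial genes without a match by -0.17 to 0.22, with a median of 0.00. In sham mice the medians were 0.27 with and -0.00 without a match among the cytosolic genes. Tested cytosolic enzymes without a window (Cars, Hars, Lars, Nars, Rars, Vars and Wars) are in neither group. The element was chosen with earlier results of these data known, so this split of the changes is a description only. A match is a description of letters in this window and was not tested as a binding site, nor was a part of ATF4 in the changes.

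Eprs and Mars1 passed the threshold with Lip-C without TGATGNAA in their windows, so their 250 bases before the start are given, 5′ to 3′ on the strand of the gene. Capitals mark TGACG or its opposite strand CGTCA, letters chosen after the sequences were seen and found in 17.8% of all stretches of this length before a start.
Eprs, chr1:185362794-185363043, plus strand: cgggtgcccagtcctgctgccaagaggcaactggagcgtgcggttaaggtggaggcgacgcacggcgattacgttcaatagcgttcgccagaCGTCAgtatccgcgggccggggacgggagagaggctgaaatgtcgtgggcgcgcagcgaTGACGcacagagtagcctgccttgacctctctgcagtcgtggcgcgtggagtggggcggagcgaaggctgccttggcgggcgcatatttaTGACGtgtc
Mars1, chr10:127311787-127312036, minus strand: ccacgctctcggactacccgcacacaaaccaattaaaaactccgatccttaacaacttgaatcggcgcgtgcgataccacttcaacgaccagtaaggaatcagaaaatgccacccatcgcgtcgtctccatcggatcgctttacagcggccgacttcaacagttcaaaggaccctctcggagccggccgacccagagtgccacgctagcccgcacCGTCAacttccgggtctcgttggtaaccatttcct

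The mitochondrial enzymes charge the transfer RNAs that translate the few proteins encoded in mitochondrial DNA. With Lip-C the largest change among them was that of Sars2 (seryl), at 0.22 (adjusted p = 0.485). Its signals were 116.5, 179.0 and 134.2 in Lip-O sham, 191.4, 148.4 and 113.4 in Lip-C sham, 111.3, 143.9 and 125.5 in Lip-O OBX and 152.8, 210.6 and 146.8 in Lip-C OBX. The sham groups overlapped throughout and the OBX groups did not. Rars2 (arginyl) changed by -0.17 and Cars2 (cysteinyl) by -0.13, both with an unadjusted p under 0.05 and adjusted p of 0.276 and 0.288.

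The other 12 mitochondrial enzymes lay between. Ears2 (glutamyl) changed by 0.09, Wars2 (tryptophanyl) by 0.07, Nars2 (asparaginyl) and Hars2 (histidyl) by 0.06 each, and Lars2 (leucyl) and Tars2 (threonyl) by 0.05 each. Yars2 (tyrosyl) changed by 0.00, Vars2 (valyl) by -0.03, Iars2 (isoleucyl) by -0.04, Pars2 (prolyl) by -0.07, Fars2 (phenylalanyl) by -0.12 and Aars2 (alanyl) by -0.14. Standard errors in this class were larger than among cytosolic enzymes, with medians of 0.09 against 0.06 on the log2 scale. A second, dimmer probe set of Vars2 changed by 0.33 with Lip-C in OBX mice (unadjusted p = 0.0329, adjusted p = 0.376), against -0.09 for the probe set used.

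Cytosolic enzymes were next set beside the mitochondrial member tested for the same amino acid, where there was one. This gave 16 pairs, with Eprs beside both Ears2 and Pars2 and both phenylalanyl subunits beside Fars2. Gars, Kars, Qars and Mars1 had no such counterpart and are in no pair, so the pairs do not cover the whole class. With Lip-C the cytosolic change exceeded the mitochondrial change in 16 of 16 pairs, by a median of 0.11. In 7 pairs the difference was larger than both standard errors together. Iars changed by 0.33 and Iars2 by -0.04, Cars by 0.28 and Cars2 by -0.13, and Aars by 0.26 and Aars2 by -0.14. The seryl pair was close, at 0.22 for both Sars and Sars2, as was the tryptophanyl pair at 0.08 for Wars and 0.07 for Wars2, and several pairs near the diagonal were separated by less than their errors. The pairs share arrays and some members, so no test was made over them.

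**Figure D3:**
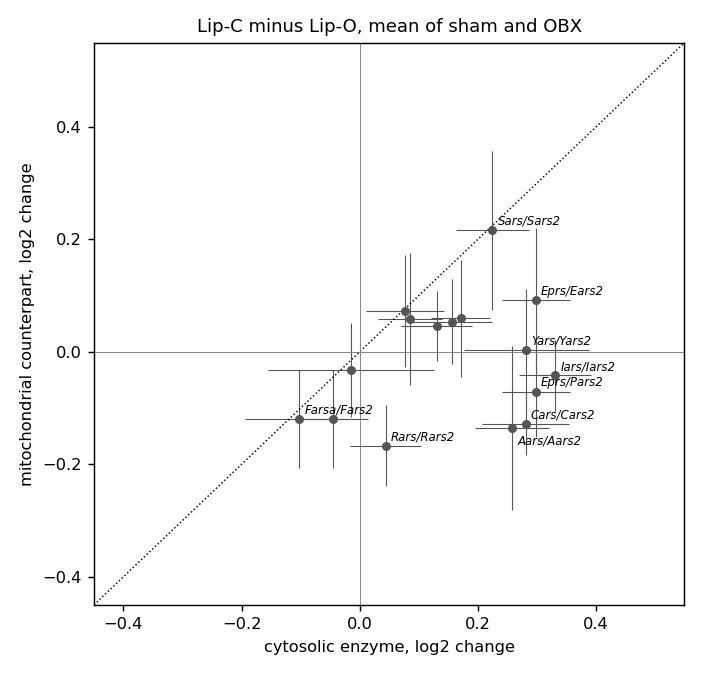
Log2 change with Lip-C of each cytosolic synthetase that had a tested mitochondrial counterpart (horizontal axis) against that counterpart (vertical axis), with standard errors, mean of sham and OBX mice. All 16 points lie under the diagonal of equal change; named are the 7 pairs separated by more than both standard errors, and Sars and Farsa for reference.

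Within sham mice the contrast between the classes was larger. The median log2 change with Lip-C was 0.18 for the cytosolic and -0.02 for the mitochondrial enzymes (0.00 for all genes), and 15 of 19 cytosolic but 6 of 15 mitochondrial changes were positive (50.6% of all genes). Eprs rose by 0.42 (SE 0.08, 1.34-fold, limma adjusted p = 0.0339), from 1340 ± 66.5 to 1798 ± 31.9 (SD, n = 3). It was the only synthetase called, and 2.1% of all genes were, 1.28% rising and 0.814% falling (175 and 111 genes, or 120 and 146 with array medians set equal). By unadjusted p under 0.05, 7 cytosolic and 2 mitochondrial enzymes passed, against 21.9% of all genes. Leaving out any of the 6 sham arrays or Lip-C OBX replicate 2 ended the Eprs call, at 0.38 to 0.45 (adjusted p 0.0526 to 0.116). So did averaging its probe sets, which gave 0.21 (adjusted p = 0.253).

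In sham mice 9 cytosolic enzymes were higher on every Lip-C array than on every Lip-O array: Aars, Eprs, Gars, Iars, Lars, Mars1, Nars, Sars and Yars. Kars was the one that lay wholly lower, at -0.12, and the share of all genes that did not overlap was 16.2% upward and 13.5% downward. Aars signals were 2667, 2602 and 2629 with Lip-O and 3121, 3429.6 and 3236 with Lip-C (0.31, adjusted p = 0.0873). Nars signals were 4222, 4225 and 3848 with Lip-O and 5002, 4841 and 4864 with Lip-C (0.26, adjusted p = 0.0751). Gars, whose product serves both compartments, went from 2549.9, 2782 and 3027 to 3358.5, 3338 and 3369.5 (0.27, adjusted p = 0.0988). In each of these the Lip-C arrays were well clear of the Lip-O arrays, and none of the 3 passed the threshold.

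No mitochondrial enzyme was wholly higher in Lip-C sham mice, and Aars2 and Tars2 were wholly lower. Aars2 had the largest mitochondrial change, -0.33 (SE 0.21, adjusted p = 0.381), from signals of 205.0, 215.3 and 227.7 to 186.5, 195.3 and 129.6. The change rested mostly on the lowest Lip-C array. Cars2 changed by -0.19 (adjusted p = 0.209), against 0.15 for Cars. In 14 of 16 pairs the cytosolic change was the higher, by more than both standard errors in 9.

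Within OBX mice the classes lay closer together. The median change with Lip-C was 0.11 for the cytosolic, 0.07 for the mitochondrial enzymes and 0.01 for all genes, and no synthetase of either class was called by limma, where 0.345% of all genes were. Positive changes numbered 14 of 19 and 9 of 15 (51.3% of all genes), and by unadjusted p under 0.05, 6 cytosolic and 3 mitochondrial enzymes passed, against 12.7% of all genes. Mars1 came nearest, with 0.42 (SE 0.09, 1.34-fold, adjusted p = 0.0841), from 1182 ± 36.9 to 1591 ± 46.6, followed by Iars at 0.37 (adjusted p = 0.12) and Cars at 0.42 (adjusted p = 0.147). Cars signals were 641.4, 564.1 and 641.3 with Lip-O and 769.2, 906.5 and 804.6 with Lip-C. Cars, Iars, Mars1, Sars and Yars were wholly higher with Lip-C, against 8.22% of all genes. Vars had the largest cytosolic change, -0.43 (adjusted p = 0.401).

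Mitochondrial enzymes that did not overlap in OBX mice were Hars2, Sars2 and Tars2, higher with Lip-C, and Rars2, lower (7.81% of all genes were wholly lower). Sars2 had the largest change of the class, 0.37 (SE 0.20, adjusted p = 0.472), and Tars2 changed by 0.30 (SE 0.09, adjusted p = 0.198). Rars2 signals were 1339.5, 1336 and 1505 with Lip-O and 1161, 1282 and 1095 with Lip-C, a change of -0.24 (adjusted p = 0.361). The cytosolic change exceeded the mitochondrial one in 9 of 16 pairs. The Lip-C changes in sham and OBX mice come from separate arrays, but the mean over both uses all of them.

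The difference between the Lip-C changes in OBX and in sham mice, the interaction, was tested directly. No synthetase passed, nor did any of the 13628 genes (0% called by limma), while 17.6% of genes had an unadjusted p under 0.05, 2405 in number. With a trended, robust variance 107 genes passed, none of them a synthetase. Among the synthetases Vars, Tars2, Wars2 and Iars2 had an unadjusted p under 0.05. The largest cytosolic estimate was that of Vars, at -0.84 (SE 0.28, adjusted p = 0.171). Its signals were 560.0, 342.4 and 435.4 in Lip-O sham, 610.6, 541.7 and 601.7 in Lip-C sham, 799.7, 539.1 and 550.5 in Lip-O OBX and 421.1, 397.1 and 560.8 in Lip-C OBX. The Lip-C arrays were mostly higher in sham and mostly lower in OBX mice, with an overlap in both.

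Tars2 had the largest mitochondrial estimate, 0.50 (SE 0.12, adjusted p = 0.11). Its signals were 452.8, 458.8 and 485.2 in Lip-O sham, 365.0, 450.1 and 395.5 in Lip-C sham, 373.0, 418.4 and 380.2 in Lip-O OBX and 503.8, 491.5 and 453.3 in Lip-C OBX. The Lip-C arrays lay below the Lip-O arrays in sham and above them in OBX mice, without overlap in either. Wars2 had an estimate of 0.50 as well (SE 0.20, adjusted p = 0.232), and Iars2 one of -0.30 (adjusted p = 0.251). For the enzymes called with Lip-C, the interaction was -0.24 for Eprs (95% interval -0.50 to 0.01), 0.24 for Mars1 (-0.03 to 0.52) and 0.07 for Iars (-0.20 to 0.34), so a different response in sham and OBX mice was not shown for any of them.

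**Figure D4:**
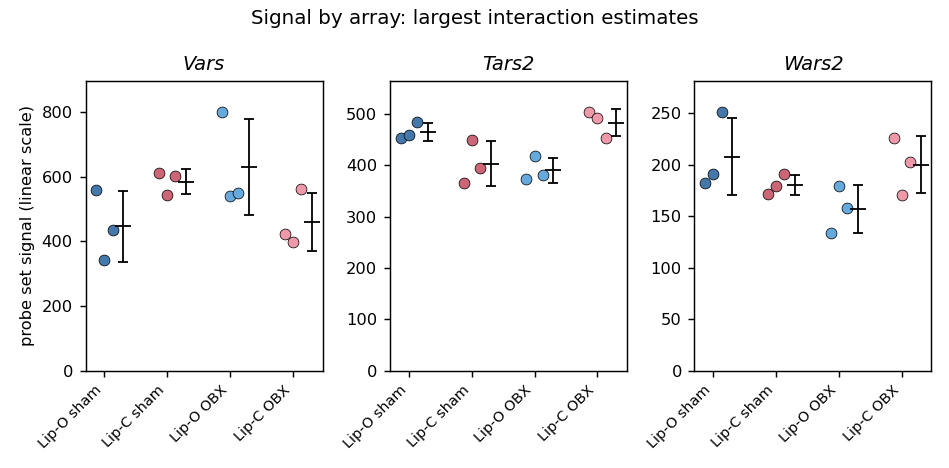
Probe set signal on a linear scale on each array for Vars, Tars2 and Wars2, the synthetases with the largest interaction estimates, with the mean and SD of each group of 3. Tars2 was lower with Lip-C in sham mice (365.0 to 450.1 against 452.8 to 485.2) and higher in OBX mice (453.3 to 503.8 against 373.0 to 418.4).

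Bulbectomy changed a large share of the transcriptome, but few synthetases were called. As the mean over both liposomes, 1 of 19 cytosolic enzymes rose, none fell, and 0 of 15 mitochondrial enzymes passed by limma, against 19.2% of all genes that rose and 13.5% that fell, 32.7% in all (2613 and 1846 genes, or 2121 and 2147 with array medians set equal). The median log2 change was -0.04 for the cytosolic, 0.02 for the mitochondrial enzymes and 0.05 for all genes, and 8 of 19 and 11 of 15 changes were positive (58.2% of all genes). By unadjusted p under 0.05, 6 cytosolic and 2 mitochondrial enzymes passed, against 43.7% of all genes.

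Qars, the glutaminyl enzyme of the multisynthetase complex, was the one called. Its signals were 1859, 1848 and 1728 in Lip-O sham, 1925, 1789.6 and 1713 in Lip-C sham, 2213, 1935 and 2217 in Lip-O OBX and 2259, 1929.9 and 2003 in Lip-C OBX. The OBX arrays lay above the sham arrays within each liposome, in both cases least at replicate 2. The rise was 0.21 (SE 0.06, 1.15-fold, limma adjusted p = 0.0289). Other probe sets of Qars changed by -0.38 (adjusted p = 0.135) and 0.02, and the mean over its probe sets was -0.05, so its direction was not shared by its probe sets. The call was also lost on leaving out replicate 3 of Lip-O sham, 2 or 3 of Lip-C sham, 1 or 3 of Lip-O OBX or 1 of Lip-C OBX, at 0.17 to 0.20 (adjusted p 0.0558 to 0.0673). With array medians set equal it was 0.17 (adjusted p = 0.0635).

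Rars, also of the complex, was likewise higher on every OBX array within each liposome. Its signals were 1804, 1731.5 and 1463 in Lip-O sham and 1884, 1870.4 and 1874 in Lip-O OBX, 1769.0, 1723 and 1695 in Lip-C sham and 1981.5, 1974 and 1798 in Lip-C OBX. The margin over the highest sham array was small in both, and the change was 0.16 (SE 0.06, adjusted p = 0.0619). Qars and Rars were 2 of 19 cytosolic enzymes wholly higher under both liposomes, with 0 of 15 mitochondrial enzymes and 8.42% of all genes. No enzyme of either class was wholly lower under both liposomes, against 1118 of 13628 genes.

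Other cytosolic changes with OBX were in both directions and below the threshold. Cars changed by -0.18 (adjusted p = 0.0823), Gars by -0.15 (adjusted p = 0.0766), Aars by -0.14 and Sars by -0.13, while Farsa changed by 0.16 and Tars by 0.13. Iars, Mars1 and Eprs, which rose with Lip-C, changed with OBX by 0.01, -0.07 and 0.03 on the probe sets used. A second probe set of Iars also rose with Lip-C (0.30, adjusted p = 0.0467) but fell by 0.30 with OBX (adjusted p = 0.00818), so the OBX change of Iars differs between its probe sets.

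Among mitochondrial enzymes the largest changes with OBX were those of Pars2 at -0.19 (adjusted p = 0.106) and Lars2 at 0.18 (adjusted p = 0.0821). Pars2 signals spanned 294.6 to 354.8 in sham and 221.8 to 318.6 in OBX mice, with an overlap. Lars2 signals spanned 479.0 to 632.4 in sham and 584.4 to 684.1 in OBX mice, again with an overlap. The cytosolic change was the higher in 8 of 16 pairs.

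By liposome, no synthetase was called for OBX with Lip-O, where 19.6% of genes were, nor with Lip-C, where 19.2% were. By unadjusted p under 0.05, 5 cytosolic and 2 mitochondrial enzymes passed with Lip-O (33.9% of all genes), and 1 and 2 with Lip-C (35.3%). Of 19 cytosolic enzymes, 3 were wholly higher and 4 wholly lower after OBX with Lip-O, against 2938 and 2204 of 13628 genes. With Lip-C these were 3 and 5 of 19, against 3139 and 2337 of 13628 genes. Taken in either direction, the cytosolic shares were close to those of all genes. Of 15 mitochondrial enzymes, 1 was wholly higher and 2 wholly lower with Lip-O, and 3 and 1 with Lip-C. With Lip-O the median change was -0.03 for the cytosolic and -0.04 for the mitochondrial enzymes (0.05 for all genes). The largest there were those of Vars at 0.49 (adjusted p = 0.113) and Wars2 at -0.37 (adjusted p = 0.0914), and Cars came nearest to the threshold at -0.31 (adjusted p = 0.0559). With Lip-C the medians were -0.02 and 0.11 (0.04 for all genes). The largest were those of Aars2 at 0.36 (adjusted p = 0.24) and Vars at -0.35 (adjusted p = 0.235), and Gars came nearest at -0.26 (adjusted p = 0.0508). These comparisons share arrays with those of Lip-C and Lip-O above, so no overlap between them is drawn.

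**Figure D5:**
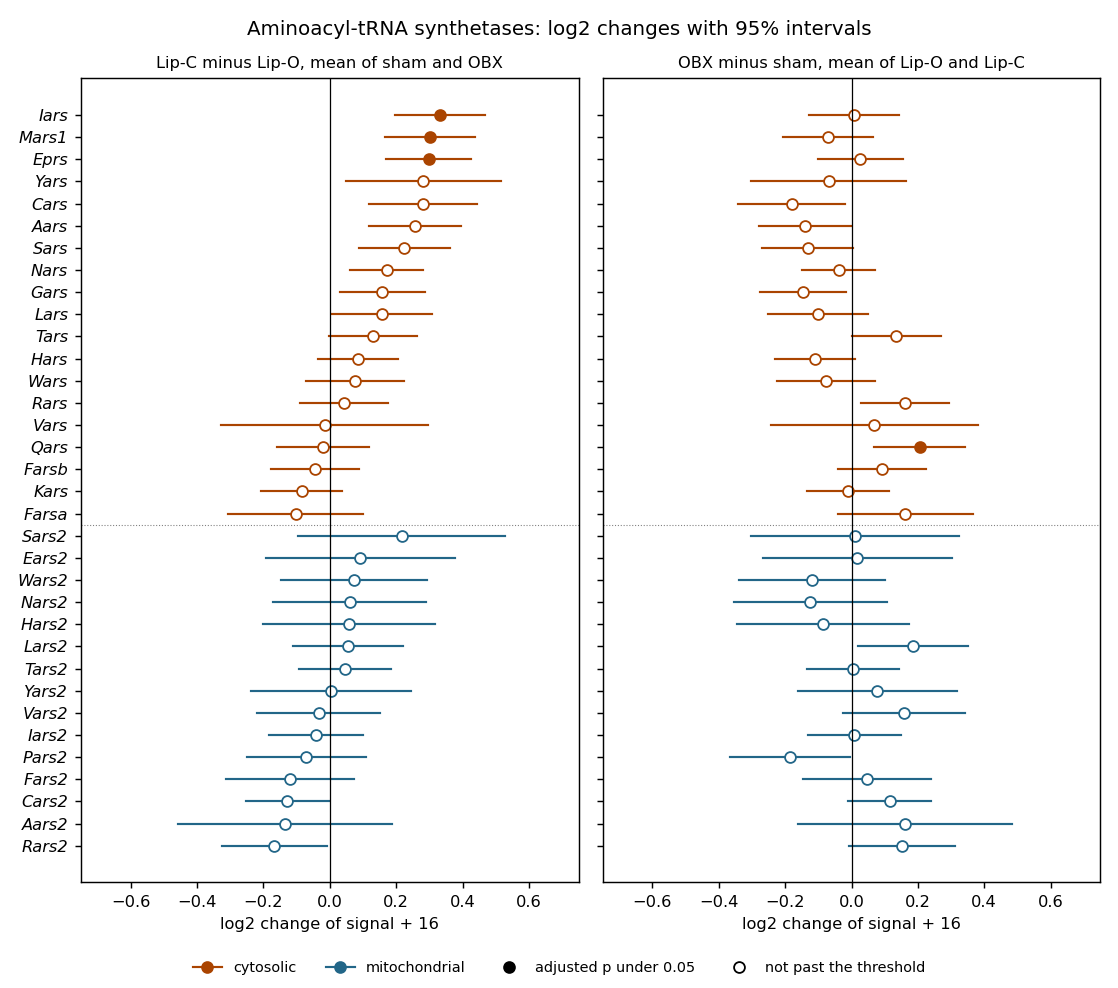
Log2 change of signal + 16 with its 95% interval for each of the 34 synthetases tested, with Lip-C (left) and with OBX (right), cytosolic above and mitochondrial below the dotted line. Filled points passed an adjusted p of 0.05: Iars, Mars1 and Eprs with Lip-C, and Qars with OBX.

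Other genes of the translation machinery gave a frame for these values. With Lip-C, 0 of 3 scaffold proteins of the multisynthetase complex passed: Aimp1 changed by 0.03, Aimp2 by -0.02 and Eef1e1 by -0.19. None of 13 other transfer RNA charging factors, 7 cytosolic elongation factors, 8 mitochondrial translation factors and 76 mitochondrial ribosomal protein genes passed either. Their medians were 0.02, -0.02, -0.03 and -0.03. As 1.59% of all genes were called, 0 calls in lists of these sizes lie near that share. In sham mice these medians were -0.01, -0.08, -0.15 and -0.07, against 0.00 for all genes. Positive changes there numbered 6 of 13, 2 of 7, 1 of 8 and 22 of 76, against 50.6% of all genes. In OBX mice the medians were 0.02, 0.02, 0.04 and 0.02, against 0.01 for all genes. With OBX, where 32.7% of all genes were called, 2 of the 13 charging factors rose and 4 fell, among them Xpot, which exports transfer RNA from the nucleus (0.30), and Tarsl2, a threonyl synthetase-like gene (-0.86). Of the 76 mitochondrial ribosomal protein genes 6 rose and 7 fell, a smaller share than of all genes.

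Genes of the amino acid response, the set that ATF4 is known to drive, also moved with Lip-C. The list was chosen with earlier results of these data known, and a part of ATF4 in the synthetase values was not tested. Of 38 tested, 14 rose and none fell, with a median of 0.23, where 0.77% of all genes rose. Atf4 signals were 5049 ± 338 in Lip-O sham, 5348 ± 285 in Lip-C sham, 4865 ± 77 in Lip-O OBX and 5227 ± 271 in Lip-C OBX (SD). Chac1 rose by 1.33, Fgf21 by 1.68 and the asparagine synthetase Asns by 0.73. Of 13 amino acid transporters 3 rose: Slc7a1 by 0.46, Slc7a3 by 1.34 and Slc7a5 by 0.29. Slc7a3 is also on the amino acid response list, so the counts of these lists are not independent.

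Markers of cell types also moved with Lip-C, and their part in the synthetase values was not tested. Of 13 neuronal precursor markers 8 fell and none rose, where 0.822% of all genes fell and 0.77% rose. The summed signal of these markers ran from 20407 to 20692 in Lip-O sham and 15108 to 17806 in Lip-C sham. In OBX mice it ran from 22048 to 26221 with Lip-O and 16520.1 to 20390.3 with Lip-C. Of 13 markers of neutrophils and myeloid progenitors 3 rose (Ms4a3, Prtn3 and Mpo) and Mmp9 fell. Their sums overlapped between groups, from 32749 to 59876, 40791 to 65439, 41291 to 56787 and 49919.5 to 80011 in the same order. Of 27 macrophage markers none was called with Lip-C over both operations. In sham mice, where 0.814% of all genes fell, 2 of them did, Csf1r by 0.83 and Aif1 by 0.90. Their sums overlapped, at 23013 to 39915 in Lip-O sham and 21934.5 to 33528 in Lip-C sham, and at 33841 to 53648 and 33829 to 45413.5 in the OBX groups.

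Summed signals of bone, matrix and supporting cell markers were lower on every Lip-C sham array than on every Lip-O sham array. Of 10 bone and cartilage markers 4 fell there, with a median of -1.36, where 0.814% of all genes fell. The sums of these markers ran from 19091 to 28327 with Lip-O and from 7803 to 9706 with Lip-C, without overlap. Over both operations 1 of them rose and 3 fell, against 0.77% and 0.822% of all genes. In OBX mice the sums overlapped, at 13457 to 25194 and 13189 to 28203. Sums of 10 fibroblast and matrix markers, none of them called in sham mice, ran from 35981 to 62025 with Lip-O and from 24675 to 31235 with Lip-C. Sums of 12 sustentacular cell markers, of which 2 fell in sham mice, ran from 129894 to 139823 and from 122500 to 123848. The part of these in the synthetase values was not tested either. With OBX, 16 of 18 markers of mature sensory neurons fell and 18 of 27 macrophage markers rose, against 13.5% and 19.2% of all genes.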

How the data were processed

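The deposited table holds the authors' intensity of 45101 probe sets on each of 12 arrays, not log-transformed and scaled so that the mean after trimming 2% was 500 on every array. Per the labels' protocols, total RNA was turned into biotinylated cRNA. How probes were combined into a probe set value is stated by none of the sources used here. Arrays give no read depth, so 3 arrays per group limit the precision. Groups and replicate numbers came from the sample titles, and no column of values was unused.

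Values were taken as log2(signal + 16), a scale that understates the change of dim genes. Probe sets brighter than the 40th percentile of an array on 3 or more arrays were kept, and each gene named by its own probe sets was represented by the one with the highest mean, which gave 13628 genes. Members were matched by the symbol of the platform annotation. A further probe set shared by Aars and another gene was not used, and 59 of 72 probe sets of members were kept. Between enzymes, changes rather than levels were compared. Summed marker signals add probe sets of different genes, so the brightest weigh most in them. Probe sets of the kinds that may bind more than one transcript represent Aars, Iars, Farsb and Wars.

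The 4 group means were fitted together with limma 3.58.1 in R 4.3.3 (8 residual degrees of freedom, 2.56 added by variance moderation). The 7 comparisons were Lip-C against Lip-O in sham and in OBX, OBX against sham in Lip-O and in Lip-C, the interaction (the Lip-C change in OBX minus that in sham mice) and both main effects. Tests were two-sided, with Benjamini-Hochberg adjustment over all genes and a threshold of 0.05, and the steps were tested on simulated data. Intervals are 95%. With 3 against 3 arrays an exact permutation test cannot go below p = 0.10, so none was used.

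Every member measured is named. Members called in any comparison are given array by array. The largest change of each class in each comparison and members whose probe sets disagree are named, some of them with signals. Of other lists at most 4 genes with the smallest adjusted p are named. The Sars, Yars, Aars, Nars, Gars, Cars, Rars, Rars2 and Lars2 signals were added after their values were seen. The members, gene lists and sequence elements were chosen with earlier results of these data known. Promoter windows came from RefSeq (GRCm38.p6), and 1 sequence from them is not reported here. Alternatives were the pseudocount, the filter, quantile normalization, the choice of probe set, the groups fitted, the variance model, the replicate number as a block and each array left out, and, chosen after seeing the data, equal array medians and leaving out both OBX arrays nearest to sham.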

Additional observations from a re-analysis of the deposited data

How the results depend on the processing

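The median log2 change of the cytosolic enzymes with Lip-C over both operations kept between 0.13 and 0.16 under every alternative and every array left out, and that of the mitochondrial enzymes between -0.03 and 0.04. Their difference (0.15) ran from 0.12 to 0.19. Counts of called enzymes were less steady. With Lip-C over both operations, 3 cytosolic calls became 0 with no filter, where more genes are tested, 1 without both OBX arrays nearest to sham (Iars), 4 with the mean of probe sets (Aars, Iars, Mars1 and Sars) or a trended, robust variance (Aars, Eprs, Iars and Mars1), and 0 to 3 with 1 array left out. In sham mice 1 call became 0 with no filter, 0 with only the compared groups fitted, 3 with a trended, robust variance (Aars, Eprs and Nars) and 0 to 1 with 1 array left out, and with the mean of probe sets the call was Iars in place of Eprs. In OBX mice 0 became 1 with a trended, robust variance (Mars1) and 0 to 1 with 1 array left out. No synthetase was called for the interaction under any alternative, and no mitochondrial enzyme with Lip-C.

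For OBX with Lip-O, 0 cytosolic calls became 1 (Cars) with the filter on all arrays, quantile normalization, a trended, robust variance or equal array medians, and 0 mitochondrial calls became 1 with the mean of probe sets (Wars2) or equal array medians (Tars2). For OBX with Lip-C, 0 cytosolic calls became 1 (Gars) with the filter on all arrays, a trended, robust variance or equal array medians, and 0 mitochondrial calls became 1 with quantile normalization (Pars2), the mean of probe sets (Cars2) or without both OBX arrays (Aars2). With 1 array left out, each of these ran from 0 to 1, except the mitochondrial count with Lip-O, which stayed at 0. For OBX over both liposomes, 1 cytosolic call became 0 with no filter or without both OBX arrays, 2 with quantile normalization or equal array medians, 3 with a trended, robust variance and 0 to 3 with 1 array left out, and 0 mitochondrial calls became 0 to 1 with 1 array left out. With the mean of probe sets the OBX change turned to -0.15 for Iars (adjusted p = 0.0309) and to -0.053 for Qars (adjusted p = 0.559). The cause was not tested, beyond the probe sets that disagree.

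The cytosolic minus mitochondrial median moved as follows. In sham mice 0.20 with Lip-C became 0.26 with the mean of probe sets (0.19 to 0.26 with 1 array left out). In OBX mice 0.04 became 0.13 without both OBX arrays and 0.0030 with the mean of probe sets (0.019 to 0.10). For OBX, 0.01 with Lip-O became -0.044 without both arrays and 0.054 with quantile normalization (-0.044 to 0.038), -0.13 with Lip-C became -0.058 with quantile normalization and -0.18 with the mean of probe sets, and -0.06 over both ran from -0.11 to -0.042. The interaction, -0.12, became -0.051, -0.24 and -0.068 with quantile normalization, the mean of probe sets and without both arrays (-0.16 to 0.0053).

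Replicate numbers were not taken to pair the samples in the main fit, since the titles give them only for biological replicates. The correlation of deviations was higher for the same number, at -0.03 to 0.33 (median 0.13). For different numbers it was -0.33 to 0.18 (median -0.09), so the ranges overlapped. Some calls depended on this choice. With the replicate number as a block, the OBX main effect had 2 cytosolic calls (Qars and Rars) and 1 mitochondrial call (Lars2), and Iars, Mars1 and Eprs kept their Lip-C calls (adjusted p 0.0385, 0.0487 and 0.0366).

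Calls over all genes were 286, 47, 2676, 2615, 0, 217 and 4459 for Lip-C in sham and OBX, OBX in Lip-O and Lip-C, the interaction, Lip-C and OBX. With 1 array left out they ran from 17 to 315, 7 to 73, 1415 to 2785, 846 to 3037, 0 to 154, 84 to 255 and 3467 to 4678, and under the other alternatives from 56 to 1449, 2 to 97, 1574 to 4890, 1736 to 3805, 0 to 107, 106 to 618 and 3736 to 7499, the highest counts mostly from testing every probe set. Dim enzymes such as Sars2 and Wars2 lie nearer to background, where signal limits precision.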
